A study of Mus musculus with 6 samples.

Results

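Potassium channel genes were followed in cultured neurons of mouse dorsal root ganglia (DRGs), which relay touch, heat and pain to the spinal cord. The set holds each gene whose symbol begins with Kcn, a family letter and a number, without the glial channel gene Kcnj10, the regulator Kcnrg and the antisense RNA Kcnq1ot1, and with at least 10 raw counts in 3 or more of the 6 cultures. Of 35976 genes in each count table, 95 matched by symbol and 82 met the count minimum. The other 13 had at most 27 counts in any culture. The last genes left out were Kcna7 and Kcnk16, each with at least 10 counts in 2 cultures, and the lowest gene kept was Kcnd2, with 15, 3 and 36 reads in vehicle and 9, 6 and 32 reads in HC-HA/PTX3. Not each member is a channel pore: Kcnab, Kcne, Kcnip and Kcnmb genes encode auxiliary proteins, and Kcnd3os and Kcnmb4os2 are transcripts from the opposite strand of a channel gene.

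The cultures came from lumbar DRGs of wildtype C57BL/6 mice of both sexes, 2 to 3 months of age. The neurons were plated for 24 h and then received either vehicle (3 cultures) or HC-HA/PTX3 at 15 µg/mL (3 cultures) for another 24 h, in medium with serum and growth factors in both groups. HC-HA/PTX3 is a complex of hyaluronan, an inter-alpha-inhibitor heavy chain and pentraxin 3 purified from human amniotic membrane, and the comparison asks whether a long exposure alters gene expression in these neurons. The number of animals behind each culture is not given in the sources used here, so each p-value speaks for these cultures only. In the fit used for calls it is set against how the treatment difference varies between replicate numbers. The spread that same-numbered cultures share is not part of it. The vehicle libraries held 42516054, 42617496 and 54117547 counts and the HC-HA/PTX3 libraries 37998071, 37434266 and 38420247. Levels are given as CPM, counts scaled to library size by TMM.

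Potassium channels let potassium leave the cell, hold the resting potential near its negative value and end each action potential. Voltage-gated members (Kcna to Kcnd) open on depolarisation, Kcnq genes carry the M-current that brakes repeated firing, Kcnn and Kcnma1 genes answer to calcium, Kcnt genes to sodium, Kcnj genes pass current inward more easily than outward, and Kcnk genes form two-pore leak channels. In sensory neurons, loss of several of these currents is known to raise excitability.

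Markers of the labelled cell type were present in all 6 cultures, beside those of other cells. The 7 neuron markers summed to 5569.8, 4748 and 5377 CPM in vehicle and 5779, 5222 and 5973 CPM in HC-HA/PTX3, with Tubb3 the most abundant, and 0 of 7 passed both thresholds. The 5 nociceptor markers, led by Scn10a, summed to 1642, 1765 and 1785 CPM in vehicle and 1835, 1752 and 1912 CPM in HC-HA/PTX3, and the 4 markers of large myelinated sensory neurons, led by Nefh, to 1319, 736 and 813 CPM in vehicle and 1239.8, 807 and 1035 CPM in HC-HA/PTX3. None of these 9 genes passed both thresholds. Satellite glia, the cells that wrap DRG neurons, were represented by 5 markers led by Apoe, at 1484, 770.4 and 340.4 CPM in vehicle and 1367, 796 and 366 CPM in HC-HA/PTX3, and 0 of 5 passed. Schwann cell markers (6 genes, led by Pmp22) summed to 1633, 1169 and 718 CPM in vehicle and 1524, 1052 and 675 CPM in HC-HA/PTX3. Replicate 3 was the lowest for both glial lists in both groups. The 4 cycling-cell markers, led by Mki67, were all called lower after HC-HA/PTX3, at 623, 423 and 187 CPM in vehicle and 206, 209 and 31.6 CPM in HC-HA/PTX3. Of 6 fibroblast markers, led by Col3a1, 3 were called lower (Col1a1, Col1a2 and Col3a1), and their sum was 2138, 2152 and 895 CPM in vehicle and 1151, 1382 and 303 CPM in HC-HA/PTX3. Of 6 mural cell markers, led by Rgs5, 2 were called lower (Acta2 and Tagln), with sums of 558, 656 and 526 CPM in vehicle and 509, 613 and 312 CPM in HC-HA/PTX3. DESeq2 called neither Acta2 (-1.04) nor Tagln (-1.01), and Tagln was also not called without HC-HA/PTX3 replicate 1 (-1.004). Without the vehicle or the HC-HA/PTX3 culture of replicate 3 several called markers had smaller differences and were still called, with Acta2 moving from -1.03 to -0.60 or -0.58, Tagln from -0.99 to -0.60 or -0.58, Col3a1 from -0.96 to -0.63 or -0.61 and Col1a2 from -1.11 to -0.75 or -0.74. Myh11 was called without HC-HA/PTX3 replicate 2 (-0.52) and had 0.012 without HC-HA/PTX3 replicate 3. Endothelial markers (5 genes, led by Cdh5) at 228, 248 and 274 CPM in vehicle and 229, 276 and 249 CPM in HC-HA/PTX3 and macrophage markers (6 genes, led by Cd68) at 33.1, 40.2 and 37.7 CPM in vehicle and 33.5, 41.1 and 33.3 CPM in HC-HA/PTX3 gave 0 calls. No marker in these lists was at 0 in all 6 cultures. In such bulk RNA, fewer cells of a type and less RNA per cell cannot be told apart.

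Per kb of exon, the members spanned from 0.0703 ± 0.0557 CPM per kb for Kcnd2 to 82.2 ± 18.2 CPM per kb for Kcnab2 in vehicle (mean ± SD, n = 3), with a median of 2.16. Kcnab2 encodes a cytoplasmic beta subunit of the Kcna channels. The next level was that of Kcna1, a low-threshold channel of the axon, at 47.9 ± 12.03 CPM per kb, followed by Kcnip4, a calcium-binding partner of the Kcnd channels, at 32.8 ± 4.94. The top 10 also held Kcna6, Kcnip3, Kcnc4, Kcnd1, Kcnb2 and Kcng3, from 22.7 CPM per kb for Kcna6 to 12.9 for Kcng3, and the 10 genes together made up 56.9% of the summed level per kb of all 82. Kcnip3 (20.7 ± 4.97 CPM per kb) and Kcnc4 (18.98 ± 4.83) lay within their spread of each other. In vehicle, 52 members had a mean of at least 1 CPM per kb and 14 a mean of at least 10. The median was 9.32 CPM per kb over the 15 voltage-gated pore genes (Kcna to Kcnd), 2.81 over the 11 two-pore genes and 0.814 over the 11 inward rectifiers.

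**Figure D1:**
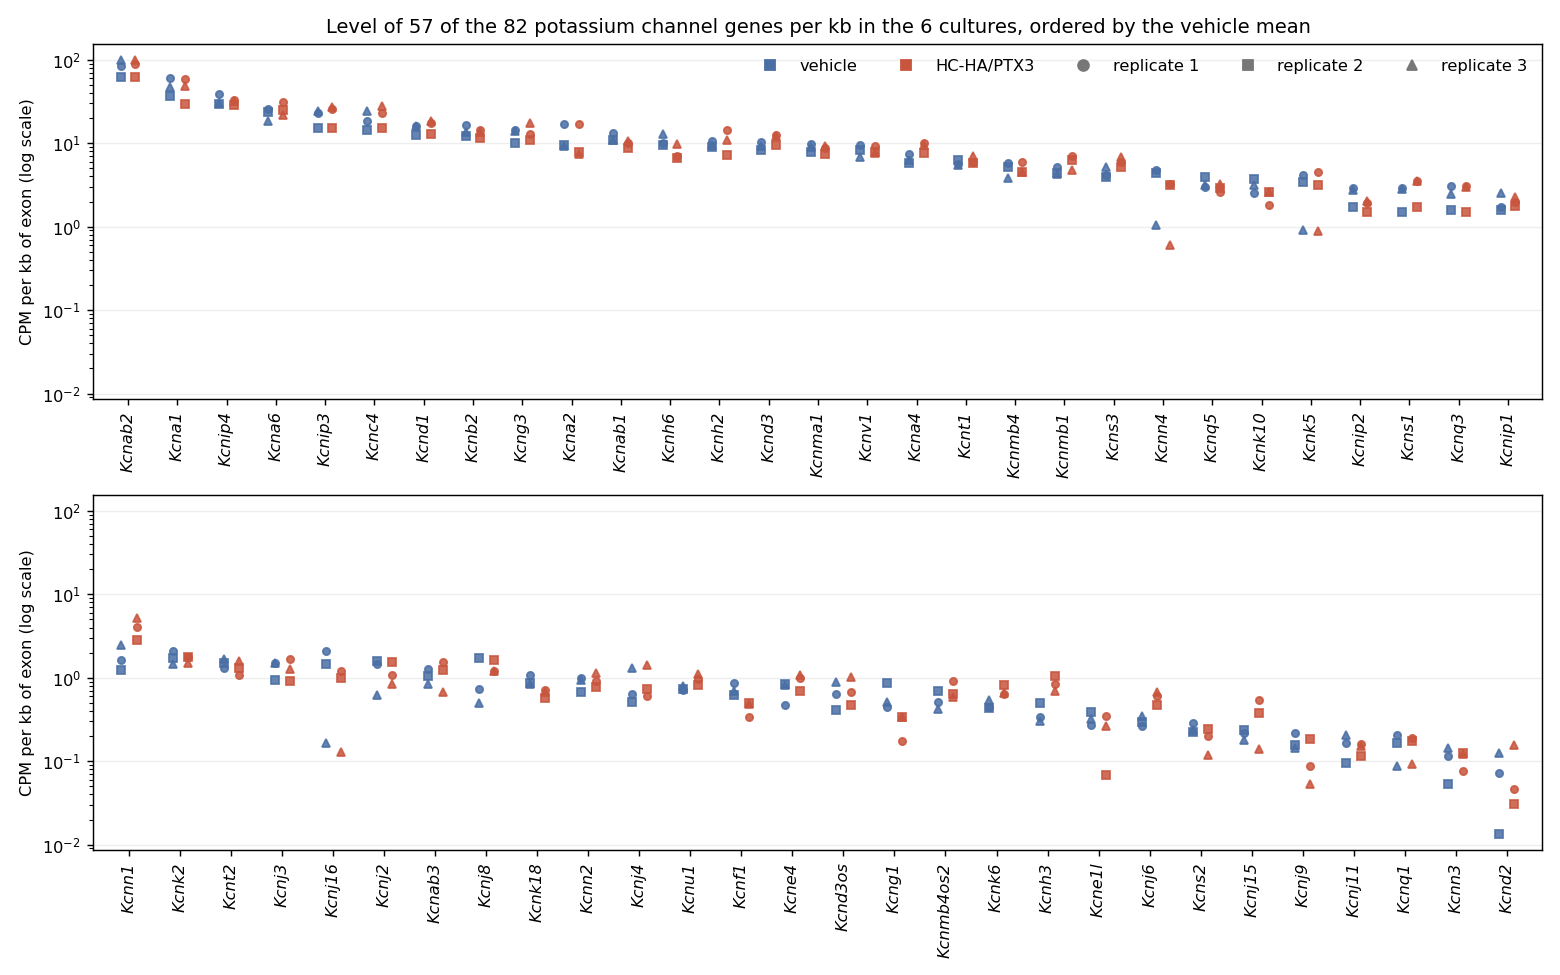
Level of 57 of the 82 potassium channel genes, those described in the text, in CPM per kb of exon (log scale), ordered by the vehicle mean. Points are single cultures, blue for vehicle and red for HC-HA/PTX3, with a symbol for each replicate number. Kcnab2 and Kcna1 lie highest and Kcnd2 lowest, and the triangles of Kcnn4, Kcnk5 and Kcnj16 lie far below their other cultures in both groups.

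Kcnn1, Kcnh3 and Kcnj6 were higher after HC-HA/PTX3, and Kcng1, Kcnf1, Kcnj16 and Kcnn4 were lower, past an adjusted p of 0.05 and an absolute log2 fold change of 0.5. These 7 calls were 8.54% of the 82 members, beside 8.7% of all 18277 genes tested (1591 calls), so the share was near the background. The 3 higher calls stood beside a background of 3.32% and the 4 lower calls beside 5.38%. Without the fold threshold, 14 members passed (17.1%, beside 19.2% of all genes), 7 in each direction. All 82 members were tested. The fit compared cultures within replicate numbers. The methods name a batch term or ComBat-seq, but the labels name no batch, and the replicate number was used as this term in its place. The same edgeR test without that term called 0 of 18277 genes and 0 of 82 members after adjustment, with 2089 genes (11.4%) and 10 members at an unadjusted p under 0.05, so each call rests on the pairing of cultures by number. With the term, DESeq2 called 1226 genes and 5 members (not Kcnf1 and Kcnj16) and limma-voom called 1569 genes and 7 members. After ComBat-seq, limma called 2220 genes (1080 higher and 1140 lower) and 9 members (4 higher and 5 lower), with Kcnk6 and Kcnk18 added. Under upper-quartile scaling the split of the member calls was 4 higher and 3 lower, with Kcna4 added and Kcnf1 lost.

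Most members showed a small difference or none that these cultures could resolve. The median log2 fold change was 0.039 over the members and -0.0067 over all genes tested, with 50 fitted values above 0 and 32 below. The 95% interval lay within 0.5 of 0 on the log2 scale for 43 of the 82 members (52.4%, beside 52.1% of all genes). Values of the groups did not overlap for 11 members (7 higher and 4 lower in HC-HA/PTX3), where 18% of all tested genes did not overlap, 9.44% higher and 8.57% lower. The summed member level was 3299.7, 2573 and 3119 CPM in vehicle and 3359, 2475 and 3323 CPM in HC-HA/PTX3, the highest and the lowest value both lying in HC-HA/PTX3. Its group means were 2997 ± 378 and 3052 ± 500.3 CPM (SD, n = 3 each), and the sum was higher in 2 of 3 pairs. An exact two-sided permutation test that ignored the replicate numbers gave p = 0.8. The smallest p that such an unpaired test of 3 against 3 allows is 0.1. Members took 0.311%, 0.259% and 0.323% of all counts in vehicle and 0.328%, 0.251% and 0.341% in HC-HA/PTX3.

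**Figure D2:**
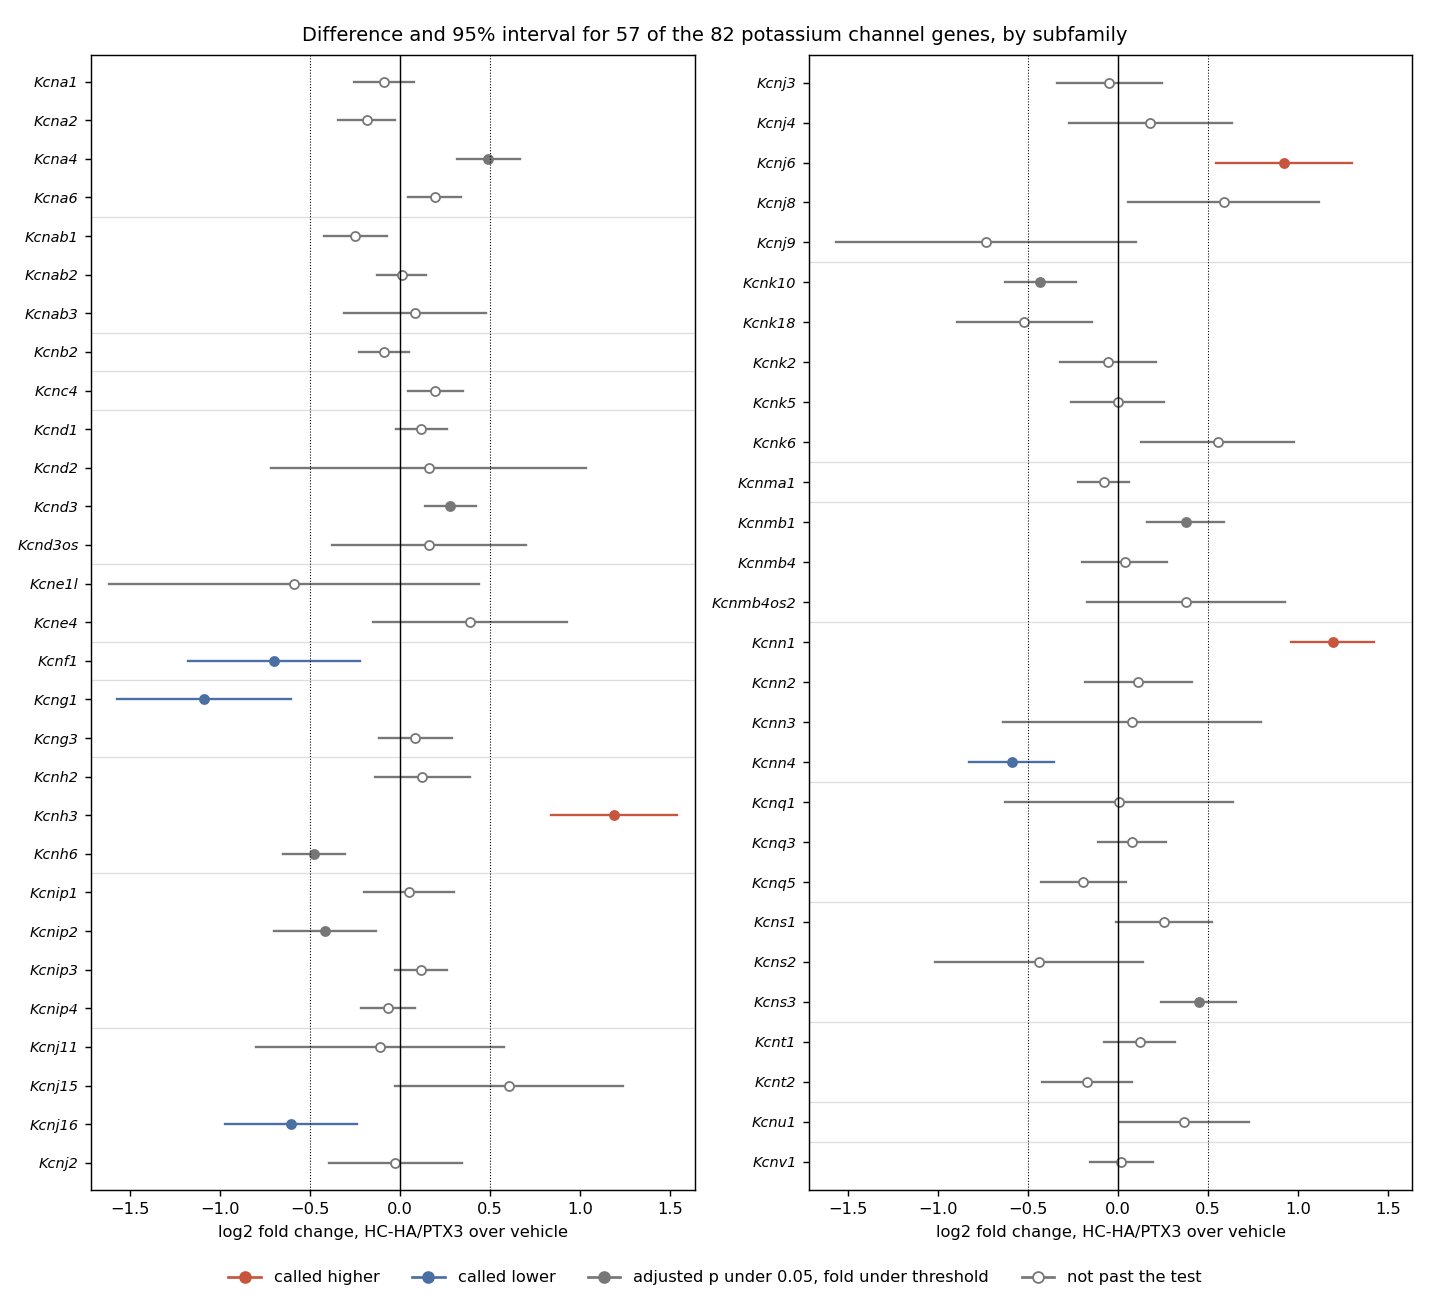
Fitted log2 fold change of HC-HA/PTX3 over vehicle with its 95% interval for 57 of the 82 potassium channel genes, those described in the text, grouped by subfamily. Dotted lines mark -0.5 and 0.5, red and blue mark genes called higher and lower, and filled grey marks an adjusted p under 0.05 with a smaller difference. Kcnn1 (1.19) and Kcnh3 (1.19) lie farthest to the right and Kcng1 (-1.09) farthest to the left.

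The calcium-activated Kcnn channels, which carry the current that follows trains of action potentials, held 1 gene called higher and 1 called lower of 4, beside 3.32% and 5.38% of all genes. Kcnn1 (ENSMUSG00000002908.17, mm10 chr8:70842049-70863258, minus strand) encodes the small-conductance channel SK1. Its counts were 302, 246 and 631 reads in vehicle and 692, 492 and 950 reads in HC-HA/PTX3, and its levels were 7.54, 5.73 and 11.3 CPM in vehicle and 18.6, 12.98 and 24.1 CPM in HC-HA/PTX3. All HC-HA/PTX3 cultures lay above all vehicle cultures, and replicate 3 was the highest in each group. The means were 8.18 ± 2.83 and 18.6 ± 5.57 CPM (SD, n = 3 each). The log2 fold change was 1.19 (SE 0.10, 2.28-fold, higher in 3 of 3 pairs, edgeR's quasi-likelihood test, Benjamini-Hochberg adjusted p = 0.000297), the smallest adjusted p among the members. Without the replicate term the difference was 1.18 with an adjusted p of 0.284 by edgeR.

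The start of Kcnn1 is shared with another transcribed gene. A230052G05Rik (mm10 chr8:70863127-70865428, plus strand), a single-exon transcript of the GENCODE class TEC, begins inside the first exon of Kcnn1, overlaps it by 132 exonic bases and runs away from it in the opposite direction. It was chosen for description after its values were seen. Its counts were 2, 1 and 11 in vehicle and 51, 45 and 58 in HC-HA/PTX3. The groups did not overlap, and its log2 fold change of 3.80 (SE 0.44, edgeR, Benjamini-Hochberg adjusted p = 0.000878, and 0.185 without the replicate term) ranked 1 among the rises of all 18277 genes tested. A fold from so few vehicle counts depends on the fit's prior count. The strand setting of the counting is not given in the sources used here, so reads in the overlap cannot be assigned to either gene from the counts alone. The counts of A230052G05Rik came to 0.662%, 0.407% and 1.74% of those of Kcnn1 in vehicle and to 7.37%, 9.15% and 6.11% in HC-HA/PTX3. With all of them taken off the Kcnn1 counts, a step chosen after seeing the data, Kcnn1 had a log2 fold change of 1.09 (SE 0.11, edgeR, Benjamini-Hochberg adjusted p = 0.000407). This step does not settle to which gene the reads in the overlap belong.

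**Figure D3:**
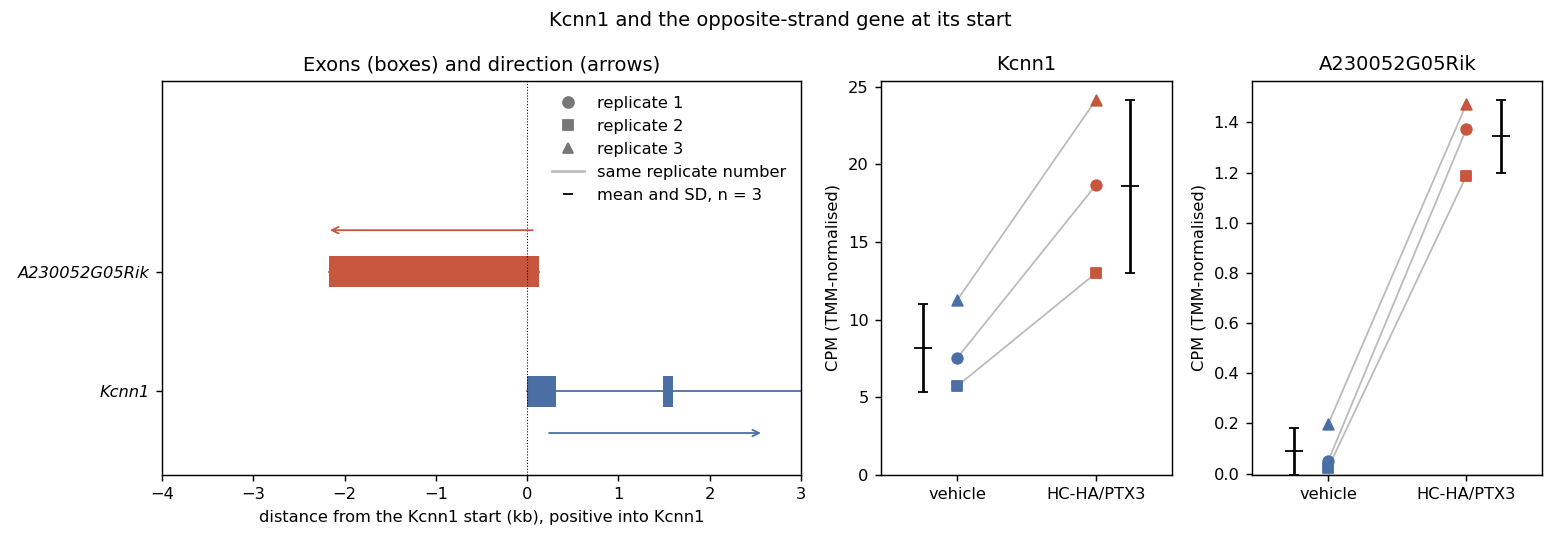
Left, exons of Kcnn1 and of the opposite-strand gene A230052G05Rik against distance in kb from the Kcnn1 start. Middle and right, levels of the 2 genes in CPM in each culture, with lines between cultures of one replicate number and the mean and SD (n = 3) beside them. A230052G05Rik begins 131 bases inside Kcnn1, and both genes were higher in each HC-HA/PTX3 culture than in each vehicle culture.

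Promoter sequences are shown for some of the called members, because the window before the Kcnn1 start lies wholly inside A230052G05Rik. They are the 250 bases before the start in RefSeq's table (GRCm38.p6, the assembly of mm10), which matched 59 of the 82 members and 5 of the 7 called ones. Each reads 5′ to 3′ on the gene's strand, and capitals mark CG dinucleotides, the bases that DNA methylation uses. The windows are Kcnn1 at chr8:70863259-70863508 (minus strand), Kcnj6 at chr16:94997697-94997946 (minus strand), Kcnn4 at chr7:24370013-24370262 (plus strand) and Kcnf1 at chr12:17176889-17177138 (minus strand).
Kcnn1: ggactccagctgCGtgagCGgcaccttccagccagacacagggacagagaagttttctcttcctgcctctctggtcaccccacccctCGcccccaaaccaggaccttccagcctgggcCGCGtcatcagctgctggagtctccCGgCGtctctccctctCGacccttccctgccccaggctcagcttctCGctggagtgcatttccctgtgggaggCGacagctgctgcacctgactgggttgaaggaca
Kcnj6: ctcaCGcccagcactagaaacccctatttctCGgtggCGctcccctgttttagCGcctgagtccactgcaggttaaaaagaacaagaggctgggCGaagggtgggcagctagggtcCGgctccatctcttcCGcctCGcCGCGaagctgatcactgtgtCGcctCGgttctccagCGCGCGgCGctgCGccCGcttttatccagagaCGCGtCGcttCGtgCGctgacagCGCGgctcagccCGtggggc
Kcnn4: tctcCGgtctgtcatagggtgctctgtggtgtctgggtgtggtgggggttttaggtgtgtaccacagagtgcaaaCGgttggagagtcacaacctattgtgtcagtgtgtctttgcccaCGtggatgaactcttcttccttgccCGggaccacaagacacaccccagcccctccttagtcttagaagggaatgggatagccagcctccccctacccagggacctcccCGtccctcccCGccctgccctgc
Kcnf1: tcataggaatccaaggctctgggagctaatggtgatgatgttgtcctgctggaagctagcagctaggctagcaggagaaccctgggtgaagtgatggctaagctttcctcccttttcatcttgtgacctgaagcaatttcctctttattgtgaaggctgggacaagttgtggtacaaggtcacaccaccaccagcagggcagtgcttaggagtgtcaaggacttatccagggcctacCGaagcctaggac
Kcnn1 has 10 CG dinucleotides in this window, a number that 37.8% of the 32851 RefSeq windows of this length reach. Kcnj6 has 26, reached by 9.59% of windows. Kcnn4 and Kcnf1 have 6 (50.4%) and 1 (92.1%). At their other RefSeq starts Kcnn1 has 8 and Kcnj6 has 7, and the windows of Kcnj16 have 1 to 7. The motif GGGCGG, on either strand, is in the Kcnn4 window and not in the windows printed for Kcnn1, Kcnj6 and Kcnf1, and 32.7% of all windows hold it. Other RefSeq starts of Kcnn1 and Kcnj6 have windows that do hold it. Kcnj16, the other called member in the table, has several starts, at least 1 of them with this motif, and its windows are not printed. Kcnh3 and Kcng1 were not in the table.

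Kcnn4 (ENSMUSG00000054342.8, mm10 chr7:24370263-24386690), the intermediate-conductance channel also known from blood and endothelial cells, was at 24.1, 22.5 and 5.34 CPM in vehicle and 16.5, 16.01 and 3.07 CPM in HC-HA/PTX3. Replicate 3 was the lowest in each group, and the groups overlapped for that reason, while each HC-HA/PTX3 culture lay below its same-numbered vehicle culture. The log2 fold change was -0.59 (SE 0.11, edgeR, Benjamini-Hochberg adjusted p = 0.00478), and -0.54 with an adjusted p of 0.845 without the replicate term. The fibroblast, mural and cycling-cell sums given above were lower in the same cultures, and their part in the Kcnn4 value was not tested. Kcnn2 and Kcnn3, the other small-conductance channels, had log2 fold changes of 0.11 (95% interval -0.18 to 0.41) and 0.078 (-0.64 to 0.79) and did not pass. Kcnn2 also has an opposite-strand neighbour, A330093E20Rik, with 4, 3 and 11 counts in vehicle and 29, 19 and 23 in HC-HA/PTX3. That gene, named after its values were seen, had a log2 fold change of 2.27 (SE 0.42, edgeR, Benjamini-Hochberg adjusted p = 0.00545, and 0.233 without the replicate term) and rank 16 among the rises of all genes tested.

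Among the 8 Kcnh genes, the ether-a-go-go family of slowly gated channels, 1 was called, higher, beside 3.32% of all genes. Kcnh3 (ENSMUSG00000037579.7, mm10 chr15:99224861-99242817), better known from forebrain, had 77, 123 and 99 reads in vehicle and 178, 228 and 159 reads in HC-HA/PTX3, which correspond to 1.92, 2.86 and 1.77 CPM in vehicle and 4.80, 6.01 and 4.04 CPM in HC-HA/PTX3. All 3 HC-HA/PTX3 cultures were above all 3 vehicle cultures. The means were 2.18 ± 0.593 and 4.95 ± 0.997 CPM (SD, n = 3 each), and per kb Kcnh3 ranked 70 of 82 in vehicle. Its log2 fold change was 1.19 (SE 0.16, higher in 3 of 3 pairs, edgeR, Benjamini-Hochberg adjusted p = 0.00119, and 0.252 without the replicate term). Kcnh6, one of the channels related to the cardiac gene Kcnh2, was at 35.98, 33.6 and 45.3 CPM in vehicle and 25.1, 23.3 and 34.6 CPM in HC-HA/PTX3. It was lower in 3 of 3 pairs, with a log2 fold change of -0.48 (SE 0.078, edgeR, Benjamini-Hochberg adjusted p = 0.00297), which is under the fold threshold. Without the vehicle or the HC-HA/PTX3 culture of replicate 3 the value was -0.53 or -0.51, past both thresholds. Kcnh2 itself had 0.12 (95% interval -0.14 to 0.39) and did not pass.

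Of the 11 inward rectifiers 1 was called higher and 1 lower, beside 3.32% and 5.38% of all genes, and their median log2 fold change was -0.047. Kcnj6 (ENSMUSG00000043301.16, mm10 chr16:94748636-94997701) encodes GIRK2, a channel opened by G protein-coupled receptors such as the opioid receptors. Its counts were 80, 98 and 150 reads in vehicle and 169, 135 and 202 reads in HC-HA/PTX3, or 1.998, 2.28 and 2.68 CPM in vehicle and 4.55, 3.56 and 5.13 CPM in HC-HA/PTX3. The groups did not overlap, and the log2 fold change was 0.92 (SE 0.17, higher in 3 of 3 pairs, edgeR, Benjamini-Hochberg adjusted p = 0.00515, and 0.256 without the replicate term). Without HC-HA/PTX3 replicate 1 the difference was 0.80, and the call was lost. Its GIRK relatives did not pass: Kcnj3 (GIRK1) was at 7.87, 4.91 and 7.75 CPM in vehicle and 8.70, 4.72 and 6.60 CPM in HC-HA/PTX3, a log2 fold change of -0.047 (95% interval -0.34 to 0.24). Kcnj9 (GIRK3) had 9 to 37 counts a culture and the lowest fitted value of its subfamily, -0.73, with an interval of -1.57 to 0.10. Without HC-HA/PTX3 replicate 2 Kcnj9 had -1.36, past both thresholds, and without HC-HA/PTX3 replicate 3 -0.45. Without vehicle replicate 2 it had -1.36 and was not called, and its other leave-out values were -0.46 to -0.47. Kcnj15, described after its values were seen, had 0.60 (-0.029 to 1.24) and passed both thresholds without the vehicle (0.99) or the HC-HA/PTX3 (1.01) culture of replicate 3. Without either culture of replicate 1 Kcnj15 had 0.21 and was not called.

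Kcnj16 (ENSMUSG00000051497.15, mm10 chr11:110968033-111027968) encodes a rectifier subunit that pairs with the glial Kcnj10 product. It was at 8.22, 5.68 and 0.643 CPM in vehicle and 4.77, 3.96 and 0.508 CPM in HC-HA/PTX3, with replicate 3 far below the others in each group. Each HC-HA/PTX3 culture was below its same-numbered vehicle culture, and the log2 fold change was -0.61 (SE 0.17, edgeR, Benjamini-Hochberg adjusted p = 0.0300). The pair of replicate 3 had only 36 and 20 reads. Kcnj10, a satellite glia marker outside the set, was at 218, 128 and 5.11 CPM in vehicle and 168, 95.2 and 4.70 CPM in HC-HA/PTX3, and its log2 fold change was -0.34 (SE 0.074, lower in 3 of 3 pairs, edgeR, Benjamini-Hochberg adjusted p = 0.0108), under the fold threshold. The other 4 satellite glia markers differed in direction, with Apoe at -0.21 and Cdh19 at 0.085. Fabp7 had -0.40, lower in 3 of 3 pairs (edgeR, Benjamini-Hochberg adjusted p = 0.0154), and Glul 0.28, higher in 3 of 3 pairs (edgeR, Benjamini-Hochberg adjusted p = 0.0198). The part of glial RNA in the Kcnj16 value was not tested. The Kcnj16 call was lost without the vehicle or the HC-HA/PTX3 culture of replicate 1 (-0.46 in both cases) and without that of replicate 2 (-0.67 and -0.66), and also with DESeq2 (-0.59).

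The silent subunits (Kcnf, Kcng, Kcns and Kcnv) form no channel alone and change the gating of Kcnb channels. Of these 9 genes 2 were called, both lower, beside 5.38% of all genes called lower, and their median log2 fold change was 0.018. Kcng1 (ENSMUSG00000074575.4, mm10 chr2:168260117-168281736, minus strand) had 80, 169 and 130 reads in vehicle and 29, 58 and 60 reads in HC-HA/PTX3, or 1.998, 3.93 and 2.32 CPM in vehicle and 0.781, 1.53 and 1.52 CPM in HC-HA/PTX3. All 3 HC-HA/PTX3 cultures were below the lowest vehicle culture. The log2 fold change was -1.09 (SE 0.22, edgeR, Benjamini-Hochberg adjusted p = 0.00765), the largest fall among the members. Without vehicle replicate 2 it was -0.94 and without HC-HA/PTX3 replicate 1 -0.99, and the call was lost in both cases. Kcnf1 (ENSMUSG00000051726.6, mm10 chr12:17172100-17176888, minus strand) was at 4.17, 2.96 and 3.29 CPM in vehicle and 1.64, 2.40 and 2.34 CPM in HC-HA/PTX3, again without overlap. It had -0.70 (SE 0.22, edgeR, Benjamini-Hochberg adjusted p = 0.0461), close to the threshold. The call was lost without vehicle replicate 1 (-0.40), without HC-HA/PTX3 replicate 1 (-0.40) and without vehicle replicate 2 (-0.90), and also under upper-quartile scaling (-0.67) and with DESeq2 (-0.71).

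Kcns3, another silent subunit with an adjusted p under 0.05, was at 13.2, 12.3 and 16.3 CPM in vehicle and 18.9, 16.6 and 21.4 CPM in HC-HA/PTX3. Its groups did not overlap and its log2 fold change was 0.45 (SE 0.094, edgeR, Benjamini-Hochberg adjusted p = 0.00937), under the fold threshold. Without either culture of replicate 1 (0.41) or vehicle replicate 2 (0.45) it was not past the p threshold. Kcns1, a subunit tied to pain sensitivity, had 0.26 (95% interval -0.0093 to 0.52), Kcns2 -0.44 (-1.02 to 0.14), Kcng3 0.086 (-0.12 to 0.29) and Kcnv1 0.018 (-0.16 to 0.19), none past the test. With 1 culture or 1 replicate number left out, Kcns2 ranged from -0.75 to -0.18. Kcnb2, a pore gene that the silent subunits join, carries a delayed rectifier current of the cell body. It had a log2 fold change of -0.088 (-0.23 to 0.053), an interval inside 0.5 of 0, and did not pass.

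**Figure D4:**
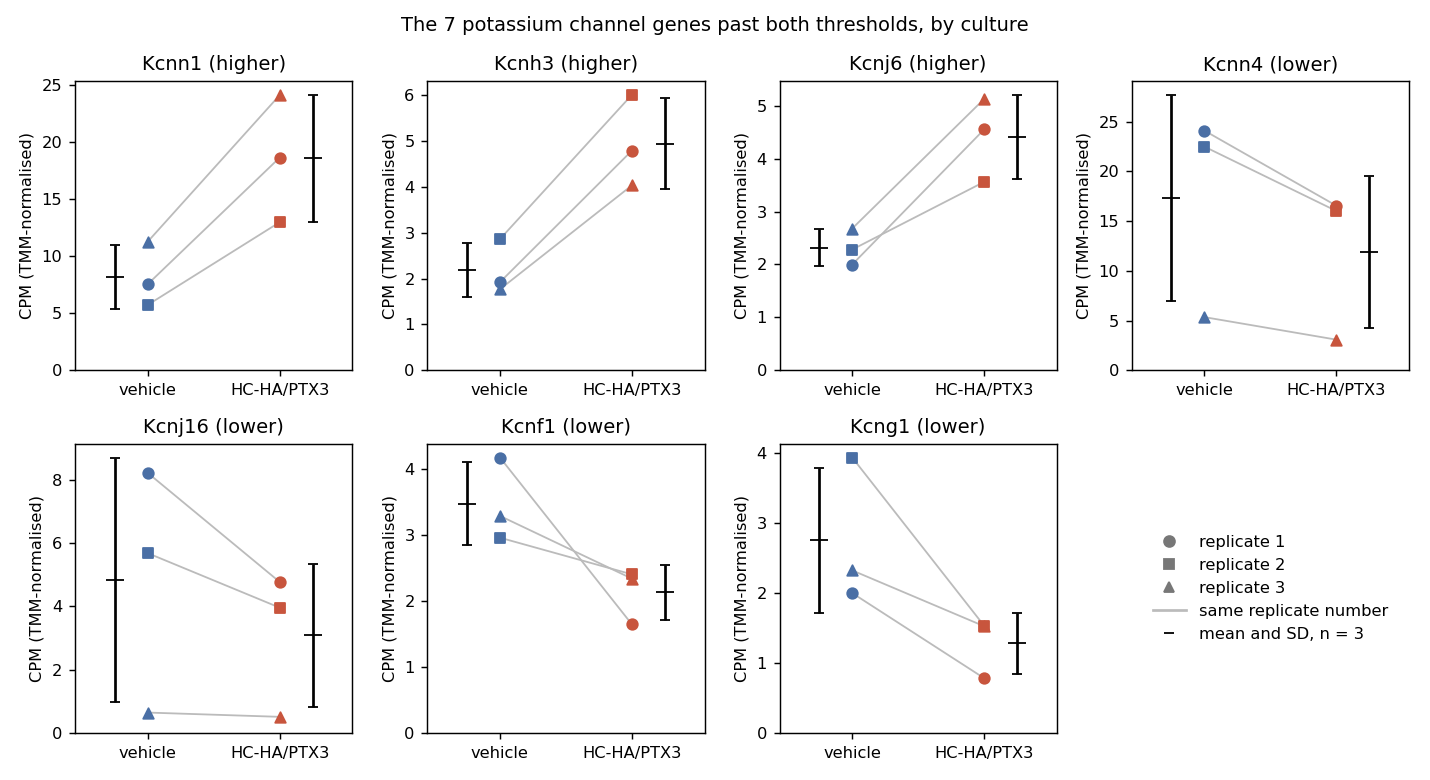
Levels in CPM of the 7 potassium channel genes past both thresholds, for each vehicle (blue) and HC-HA/PTX3 (red) culture. Lines join cultures with the same replicate number, and black marks give the mean and SD (n = 3). In all 7 genes the 3 lines run in one direction, while Kcnn4 and Kcnj16 overlap between groups because of replicate 3.

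Among the other voltage-gated pore genes no member was called, beside 8.7% of all genes. Kcna4, which carries a rapidly inactivating current in small sensory neurons, came nearest, at 35.7, 27.7 and 30.04 CPM in vehicle and 48.1, 36.6 and 46.5 CPM in HC-HA/PTX3. Its groups did not overlap, and its log2 fold change of 0.49 (SE 0.079, edgeR, Benjamini-Hochberg adjusted p = 0.00284) fell just short of the fold threshold. It passed both thresholds under upper-quartile scaling (0.52) and when any single culture of replicate 1 or 2 was left out (0.52 to 0.53). Kcnd3, an A-type channel, had 0.28 (SE 0.065, edgeR, Benjamini-Hochberg adjusted p = 0.0143), higher in 3 of 3 pairs. Without the vehicle (0.22) or HC-HA/PTX3 (0.24) culture of replicate 3 or vehicle replicate 2 (0.32) Kcnd3 was not past the p threshold. Kcna1 was at 289, 174 and 224 CPM in vehicle and 279.6, 143 and 235 CPM in HC-HA/PTX3 and had -0.088 (95% interval -0.25 to 0.078), and Kcna2, its partner in axonal channels, -0.18 (-0.34 to -0.025). Neither passed. Kcna6 had 0.19 (0.047 to 0.34), Kcnc4 0.20 (0.044 to 0.35) and Kcnd1 0.12 (-0.023 to 0.26), each interval inside 0.5 of 0.

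Auxiliary genes gave 0 calls of 13, beside 8.7% of all genes, and 2 had an adjusted p under 0.05, beside 19.2%. Kcnip2, a calcium sensor that assists Kcnd channels, was at 10.1, 6.05 and 9.45 CPM in vehicle and 6.66, 5.17 and 7.08 CPM in HC-HA/PTX3. It was lower in 3 of 3 pairs, with -0.42 on the log2 scale (SE 0.13, edgeR, Benjamini-Hochberg adjusted p = 0.0443), and without HC-HA/PTX3 replicate 2 it had -0.51, past both thresholds. When any other single culture was left out (-0.33 to -0.51), and under upper-quartile scaling (-0.38) and DESeq2 (-0.42), Kcnip2 was not past the p threshold. Kcnmb1, the beta subunit that raises the calcium sensitivity of Kcnma1 channels, was at 21.7, 18.4 and 17.9 CPM in vehicle and 29.4, 26.6 and 19.98 CPM in HC-HA/PTX3, a log2 fold change of 0.38 (SE 0.10, higher in 3 of 3 pairs, edgeR, Benjamini-Hochberg adjusted p = 0.0230). Kcnip3, also known as the repressor DREAM, had 0.12 (95% interval -0.025 to 0.26) and Kcnip4 -0.067 (-0.22 to 0.082). Of the beta subunits of Kcna channels, Kcnab1 had -0.25 with groups that did not overlap (edgeR, Benjamini-Hochberg adjusted p = 0.0501), just above the p threshold. Kcnab2 had 0.010 (-0.13 to 0.15) and Kcnab3 0.083 (-0.31 to 0.48). Kcne1l (4 to 28 counts a culture) and Kcne4 had -0.59 (-1.61 to 0.44) and 0.39 (-0.15 to 0.93), intervals too wide to place either value.

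The 11 two-pore leak channels gave 0 calls, beside 8.7% of all genes, and a median log2 fold change of -0.0019. Kcnk18, the leak channel TRESK of sensory neurons, was at 3.80, 3.003 and 2.95 CPM in vehicle and 2.45, 2.005 and 2.31 CPM in HC-HA/PTX3, with each HC-HA/PTX3 culture below each vehicle culture. Its log2 fold change was -0.52 (SE 0.17, edgeR, Benjamini-Hochberg adjusted p = 0.0552), short of the p threshold, and it passed both with all genes of at least 1 count (-0.54) and after ComBat-seq (-0.51). Kcnk10, a mechanically and lipid-gated relative of Kcnk2, was at 22.1, 32.9 and 27.9 CPM in vehicle and 16.1, 22.7 and 22.7 CPM in HC-HA/PTX3. It was lower in 3 of 3 pairs with -0.43 (SE 0.088, edgeR, Benjamini-Hochberg adjusted p = 0.00838), under the fold threshold, and -0.50 without vehicle replicate 3, past both thresholds. Without vehicle replicate 2 (-0.38) or HC-HA/PTX3 replicate 1 (-0.42) Kcnk10 was not past the p threshold. Kcnk2 (TREK-1) had -0.056 (95% interval -0.32 to 0.21). Kcnk6 was at 1.87, 1.79 and 2.25 CPM in vehicle and 2.64, 3.40 and 2.69 CPM in HC-HA/PTX3, without overlap, and had 0.55 (SE 0.19, edgeR, Benjamini-Hochberg adjusted p = 0.0683), which passed both thresholds without the vehicle (0.71) or the HC-HA/PTX3 (0.73) culture of replicate 3. Without the vehicle or the HC-HA/PTX3 culture of replicate 2 Kcnk6 had 0.37 or 0.36 and was not called.

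The M-current genes and the large-conductance and sodium-activated channels held no call, beside 8.7% of all genes. Kcnq3 was at 44.6, 23.5 and 36.5 CPM in vehicle and 45.5, 22.3 and 43.8 CPM in HC-HA/PTX3, and its log2 fold change was 0.077 (95% interval -0.11 to 0.27). Kcnq5 had -0.19 (-0.43 to 0.043), and differences beyond 0.5 lay outside the interval of either gene. Kcnma1, the large-conductance calcium-activated channel, was at 165, 134 and 155 CPM in vehicle and 148, 124 and 157 CPM in HC-HA/PTX3, with -0.079 (-0.22 to 0.062). The sodium-activated Kcnt1 and Kcnt2 had 0.12 (-0.075 to 0.32) and -0.17 (-0.42 to 0.077). Kcnu1, known from sperm, was at 2.65 to 2.95 CPM in vehicle and 3.06 to 4.09 in HC-HA/PTX3, with 0.37 (0.0099 to 0.73) and no call. Kcnmb4os2, the opposite-strand transcript at Kcnmb4, had 0.38 (-0.17 to 0.93). With 1 culture or 1 replicate number left out, Kcnmb4os2 ranged from 0.16 to 0.64 and Kcnq5 from -0.33 to -0.062.

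Genes that work with potassium channels were given by a list of 41, of which 38 were tested and 2 called (5.26%, beside 8.7% of all genes), 1 in each direction. Lrrc26, Lrrc38 and Lrrc52, gamma subunits of Kcnma1 channels, were too low to test. Abcc9, the sulfonylurea receptor that joins Kcnj8 or Kcnj11 in ATP-sensitive channels, was at 16.8, 26.7 and 9.84 CPM in vehicle and 26.7, 29.7 and 18.4 CPM in HC-HA/PTX3. It had a log2 fold change of 0.57 (SE 0.13, higher in 3 of 3 pairs, edgeR, Benjamini-Hochberg adjusted p = 0.0143), while Kcnj8 itself had 0.59 (95% interval 0.059 to 1.12, edgeR, Benjamini-Hochberg adjusted p = 0.114). Abcc8, the other sulfonylurea receptor, had -0.64 (SE 0.21, lower in 3 of 3 pairs, edgeR, Benjamini-Hochberg adjusted p = 0.0580), short of the p threshold, and was called after ComBat-seq (-0.60) and with all genes of at least 1 count (-0.67). Kcnj8 passed both thresholds without the vehicle (0.99) or the HC-HA/PTX3 (0.98) culture of replicate 2. Without the vehicle or the HC-HA/PTX3 culture of replicate 3 it had 0.27 or 0.29 and was not called. Atp1b2, a glial beta subunit of the sodium pump, was at 99.9, 41.3 and 3.52 CPM in vehicle and 47.1, 25.5 and 3.89 CPM in HC-HA/PTX3, with -0.67 (SE 0.17, edgeR, Benjamini-Hochberg adjusted p = 0.0198), lower in 2 of 3 pairs. The Abcc9 call was lost without vehicle replicate 1 or 3 (0.52 and 0.40) and without HC-HA/PTX3 replicate 1 or 3 (0.52 and 0.42). The Atp1b2 call was lost without vehicle replicate 1 or 2 (-0.36 and -0.64) and without HC-HA/PTX3 replicate 1 (-0.37), and also with DESeq2 (-0.56). Of the proteins that cluster channels on the axon, Cntn2 (0.33), Sptbn4 (0.30) and Dlg2 (-0.32) had adjusted p-values of 0.0156, 0.0263 and 0.0145 by edgeR. All were under the fold threshold and not called. An adjusted p under 0.05 was found for 19.2% of all genes. Cntnap2 (-0.11), Ank3 (-0.10) and Nfasc (0.14) did not pass. Neither did the other listed genes of these axonal complexes, Adam22 (0.032), Lgi1 (0.10), Lgi2 (0.12), Lgi3 (0.19), Lgi4 (0.079), Dlg1 (-0.015), Dlg4 (-0.12) and Epb41l3 (0.068).

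More members differed by replicate number than by treatment. Over the 6 cultures, 49 of 82 members (59.8%) differed between the 3 replicate numbers at an adjusted p under 0.05 by edgeR, beside 33.8% of all genes tested. Of the 49, 30 were higher in replicate 3 than in the mean of replicates 1 and 2 in both groups, 12 lower in both and 7 mixed. The largest deviation was that of Kcnj16, whose replicate 3 was -3.22 from the mean of the others on the log2 scale in vehicle and -2.87 in HC-HA/PTX3. Kcnn4 (-2.10 and -2.37) and Kcnk5 (-2.02 and -2.06) came next. Kcnk5, an acid-sensitive leak channel, was at 14.1, 11.5 and 3.07 CPM in vehicle and 15.4, 10.6 and 2.996 CPM in HC-HA/PTX3, and its treatment difference was -0.0019 with an interval of -0.26 to 0.26. In the opposite direction stood Kcnd2 (1.39 and 1.62, from 3 to 36 counts) and Kcnj4 (1.12 and 1.03). The satellite glia, Schwann cell, fibroblast, cycling-cell and mural cell sums above were likewise lowest in replicate 3 of each group, as were Lgi4, secreted by glia, at 216, 135 and 11.6 CPM in vehicle and 234, 134 and 12.8 CPM in HC-HA/PTX3, and Kcnj10. Their part in these member differences was not tested.

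**Figure D5:**
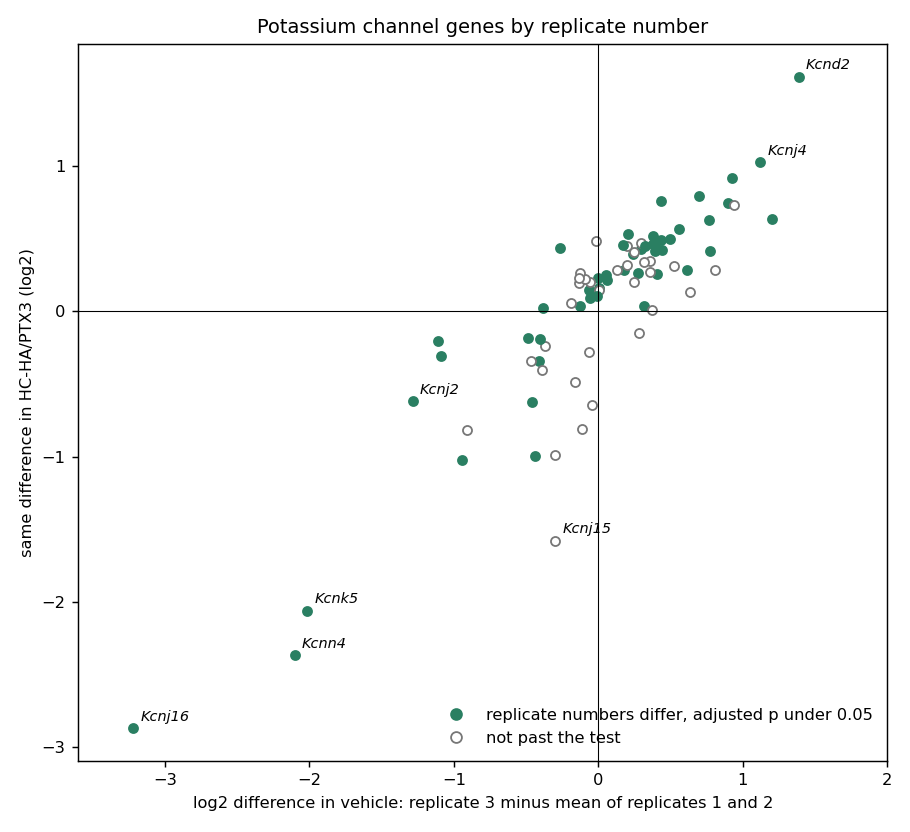
Log2 difference between replicate 3 and the mean of replicates 1 and 2 for each of the 82 potassium channel genes, in vehicle (horizontal axis) and in HC-HA/PTX3 (vertical axis). Filled points had an adjusted p under 0.05 between replicate numbers. Kcnj16, Kcnn4 and Kcnk5 lie at the lower left, low in replicate 3 of both groups, and Kcnd2 at the upper right.

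Overlap with other genes limits what some counts can say. By GENCODE positions, 29 of the 82 members share exonic bases with another gene, in 27 cases on the opposite strand. Kcnj6 shares 380 bases with Gm41505, which had 2 to 10 counts a culture, far under the 80 to 202 of Kcnj6. Kcnh3 shares 1 base with Mcrs1. Kcnq1 shares 121 bases with the imprinted antisense RNA Kcnq1ot1, which had 11654 to 20083 counts a culture where Kcnq1 had 15 to 34, so the Kcnq1 value, 0.0071 on the log2 scale (-0.63 to 0.64), is uncertain.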

How the data were processed

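RNA was measured in 6 cultures, and groups and replicate numbers came from the sample labels. The authors depleted ribosomal RNA, sequenced read pairs, aligned them to mm10 and deposited raw counts per gene. The methods and the submitters' processing notes name HISAT2 and featureCounts, while the file headers name STAR, and the strand setting is not given in the sources used here. The deposited counts were analysed in R 4.3.3 with edgeR 4.0.16: filterByExpr kept 18277 genes, libraries were scaled by TMM, and glmQLFit and glmQLFTest compared the groups with the replicate number as a term. The methods name a batch term in edgeR or ComBat-seq, and the replicate number stood in for that batch here. ComBat-seq was run as an alternative, also with the replicate number in place of the batch. Adjustment was Benjamini-Hochberg over all tested genes. A gene was called when its adjusted p was below 0.05 and its log2 fold change beyond 0.5 in size. Alternatives used DESeq2 1.42.0, limma 3.58.1 and sva 3.50.0 (ComBat-seq).

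The pairing by replicate number was checked over the tested genes: deviations from group means correlated at 0.631, 0.536 and 0.774 between same-numbered cultures and at -0.613 to 0.148 between others. No 2 libraries of a group were duplicates, with a chi-square of 34.1 to 120.01 per degree of freedom between their counts. Lengths and positions are those of GENCODE M21 on the assembly of mm10, matched by symbol, with all exons of a gene joined, and were found for 82 of 82 members. Replicate-number differences used log2(CPM + 0.1). The fit was tested on simulated counts.

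The members and lists were chosen with earlier results of these data known. Genes named are the called members, the 10 highest per kb in vehicle, members with known roles in sensory neurons, the largest rise and fall of each subfamily, called partner genes and markers. Some genes that this rule names are not described, and figures label members described in the text. Other members named, the channel classes, the promoter motifs and the overlapping genes were chosen after their values were seen. At 37434266 to 54117547 counts a library, 3 counts equal 0.0536 to 0.0808 CPM. Intervals cover only how the treatment difference varies between the replicate numbers of these cultures. Protein sequences were not used here.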

Additional observations from a re-analysis of the deposited data

How the results depend on the processing

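Of the 7 members called, Kcnn1, Kcnh3 and Kcnn4 were called whichever culture or pair was left out, and all 7 kept their direction under each alternative. Kcnn1 ranged from 1.09, with the A230052G05Rik counts taken off, to 1.26 on the log2 scale and Kcnh3 from 1.13 to 1.25. Both genes lost the call in only 1 setting, without the replicate term. The ranges of adjusted p below mix tests against 0 with glmTreat, which tests against 0.5. Without the replicate term, a test against 0, edgeR's adjusted p was 0.845 for Kcnn4, 0.350 for Kcnf1 and 0.865 for Kcnj16. Over the alternatives the adjusted p ranged from 2.2e-18 to 0.284 for Kcnn1, 4.35e-10 to 0.252 for Kcnh3, 3.4e-05 to 0.983 for Kcnn4, 4.44e-06 to 0.256 for Kcnj6, 1.33e-06 to 0.348 for Kcng1, 0.00102 to 0.942 for Kcnf1 and 0.0039 to 1 for Kcnj16.

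Without the replicate term edgeR called 0 genes, 0 members and 0 partner genes (2089 genes and 10 members at an unadjusted p under 0.05), against 1591, 7 and 2 with it, and the cause was not tested. With the fold threshold dropped, calls numbered 3505 genes, 14 members and 7 partner genes, and with glmTreat, which tests against 0.5 itself, 295, 2 (Kcnh3 and Kcnn1) and 0. With all genes of at least 1 count, 11 members were called, and DESeq2 called 1 partner gene. Leaving out 1 culture gave 895 to 2010 genes, 4 to 11 members and 0 to 2 partner genes. Leaving out both cultures of a replicate number, chosen after seeing the data, gave 878 genes, 4 members and 0 partner genes without number 1, and 1 partner gene without number 2, from fewer samples. With 1 culture left out, its partner stands alone at its replicate number and adds almost nothing to the treatment difference. The fitted differences of members then come close to those with the pair left out, but the calls can differ. Without HC-HA/PTX3 replicate 2 the calls were 2010 genes and 10 members. Without both cultures of number 2 they were 1571 genes and 6 members.

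Some members that were not called changed sign. The fitted value of Kcne1l was -0.59, and those of the others lay within 0.5 of 0. With all genes of at least 1 count Kcnab2 had -0.0073, where the cause was not tested. With 1 culture left out, from fewer samples, the ranges were -0.17 to 0.0055 for Kcna1, -0.014 to 0.030 for Kcnab2, -0.024 to 0.28 for Kcnab3, -1.12 to 0.0061 for Kcne1l, -0.031 to 0.21 for Kcng3, -0.13 to 0.0043 for Kcnip4, -0.15 to 0.066 for Kcnj3, -0.11 to 0.034 for Kcnk2, -0.025 to 0.14 for Kcnq3, -0.0063 to 0.22 for Kcnt1 and -0.056 to 0.060 for Kcnv1. Without both cultures of number 1, Kcnab2 had -0.012, Kcnab3 -0.022, Kcnip4 0.0057 and Kcnk2 0.036. Without number 2, Kcna1 had 0.0070, Kcnab3 -0.0050 and Kcne1l 0.0074. Without number 3, Kcng3 had -0.011, Kcnj3 0.067, Kcnq3 -0.0054 and Kcnv1 -0.037.

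The summed member level, 1.85% above vehicle, ranged from -4.88% to 11.5% with 1 culture left out. Depth limits members such as Kcnd2, Kcne1l and Kcnj9, where single cultures held fewer than 10 counts and the intervals are wide. With at least 10 counts required in every culture, these 3 members were not tested.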

Other observations

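Some members lie beside each other in the mouse genome (mm10), and neighbours did not always move together. These pairs were picked after their values were seen, and no relation between neighbours was tested. Kcnj6 (chr16:94748636-94997701, 0.92 on the log2 scale) has Kcnj15 (chr16:95257558-95300260, 0.60) on the same chromosome, and 1 of the 2 was called. Kcnj16 (chr11:110968033-111027968, -0.61) lies near Kcnj2 (chr11:111066164-111076821, -0.025), and 1 of these 2 was called. Kcnmb1 (chr11:33963013-33973641, 0.38) lies within the span of Kcnip1 (chr11:33629339-33993152, 0.049), and neither was called.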
